A study of Macaca mulatta with 5 samples.

Results

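Myelin proteins and the enzymes that make and supply myelin lipids were followed across the nuclei of the macaque claustrum, a thin grey matter layer that lies beneath the insula and beside the putamen. The genes were MBP, MOBP, MOG, MAG, FA2H, UGT8, GAL3ST1, ASPA and ABCA2, and they were taken from the feature tables by their symbols. Of these 9 symbols, 8 had rows in all 5 matrices, in 9 rows of 21761, because MOBP stood under 2 identifiers (ENSMMUG00000051408 and ENSMMUG00000009197). MAG was not analysed here. The other identifiers were ENSMMUG00000011333 for MBP, ENSMMUG00000002967 for MOG, ENSMMUG00000008381 for FA2H, ENSMMUG00000014456 for UGT8, ENSMMUG00000064009 for GAL3ST1, ENSMMUG00000056697 for ASPA and ENSMMUG00000021434 for ABCA2.

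The nuclei came from frozen claustrum of 2 healthy, untreated male rhesus macaques, and their RNA was counted with the 10x Genomics 3' kit, version V3. There were 3 libraries of the 18-month animal and 2 of the 17-month animal. Each age is therefore 1 animal, age and animal cannot be told apart, and every p-value measures the spread between these libraries. No genotype or treatment separates the groups.

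Myelin is the membrane that oligodendrocytes wrap around axons, and these cells arise from oligodendrocyte precursors through a short committed stage. MBP is a basic protein that holds the cytoplasmic faces of the membrane together, MOBP is a small basic protein of compact myelin, and MOG is a surface protein of the outermost layer. Myelin is rich in galactolipids: FA2H adds a hydroxyl group to their fatty acids, UGT8 joins galactose to ceramide to give galactosylceramide, and GAL3ST1 adds sulfate to give sulfatide. ASPA splits N-acetylaspartate and so frees acetate for lipid synthesis, and ABCA2 is a lipid transporter of late endosomes and lysosomes.

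After filtering, 37091 of 40005 nucleus barcodes were kept, 6053 to 8812 a library, with library medians of 2976 to 3485 UMIs per nucleus. A UMI is 1 tagged RNA molecule. Any pair of libraries shared 11 to 39 barcodes. Clusters were made and named without the myelin genes described here, so the names below mean nuclei that resemble a type by its markers. They gave 2056 oligodendrocyte precursors (PDGFRA, VCAN and PTPRZ1 among the markers), 141 committed precursors (GPR17, BCAS1, TNS3) and 14507 oligodendrocytes (ST18 and MYRF among the markers). The 7 classes outside the lineage were 7910 excitatory neurons, 2749 inhibitory neurons, 2052 striatal projection neurons, 2829 microglia, 1181 astrocytes, 583 endothelial cells and 169 mural cells or fibroblasts, while 2914 nuclei stayed unnamed. Oligodendrocytes made up 35.3%, 40.5% and 40.1% of nuclei in 18-month libraries 1, 2 and 3, against 27.9% and 51.8% in 17-month libraries 1 and 2. The committed class held 2 kinds of nuclei when clustered more finely. Of its nuclei, 60 carried GPR17 at 161 CPM and BCAS1 at 7268 CPM, and the other 81 carried GPR17 at 5.44 CPM and BCAS1 at 455 CPM, close to the 3.22 and 583 CPM of oligodendrocytes. CPM are counts per 1000000 UMIs, taken over all nuclei of 1 class in 1 library. Every result for the whole committed class below rests on this mixture, and the lineage comparisons are also given with the GPR17 part alone.

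The structural proteins were far higher in oligodendrocytes than in precursors. Along the stages, MBP averaged 117 ± 59.4 CPM in precursors (SD, n = 5 libraries), 8894 ± 1849 CPM in committed precursors (n = 4, since 17-month library 1 had only 16 such nuclei) and 6183 ± 381 CPM in oligodendrocytes (n = 5). In oligodendrocytes MBP was at 6065, 5886 and 6600 CPM in the 18-month libraries, against 5791 and 6572 CPM in the 17-month ones. Its precursor levels were 91.2, 95.1 and 82.3 CPM in the 18-month libraries, against 94.7 and 223 CPM in the 17-month ones. The 5 oligodendrocyte values lay close together and all above the precursor values, among which 17-month library 2 was the highest. The log2 fold change of oligodendrocytes over precursors was 5.79 ± 0.29 (SE; edgeR quasi-likelihood test, adjusted p = 3.66e-22).

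**Figure D1:**
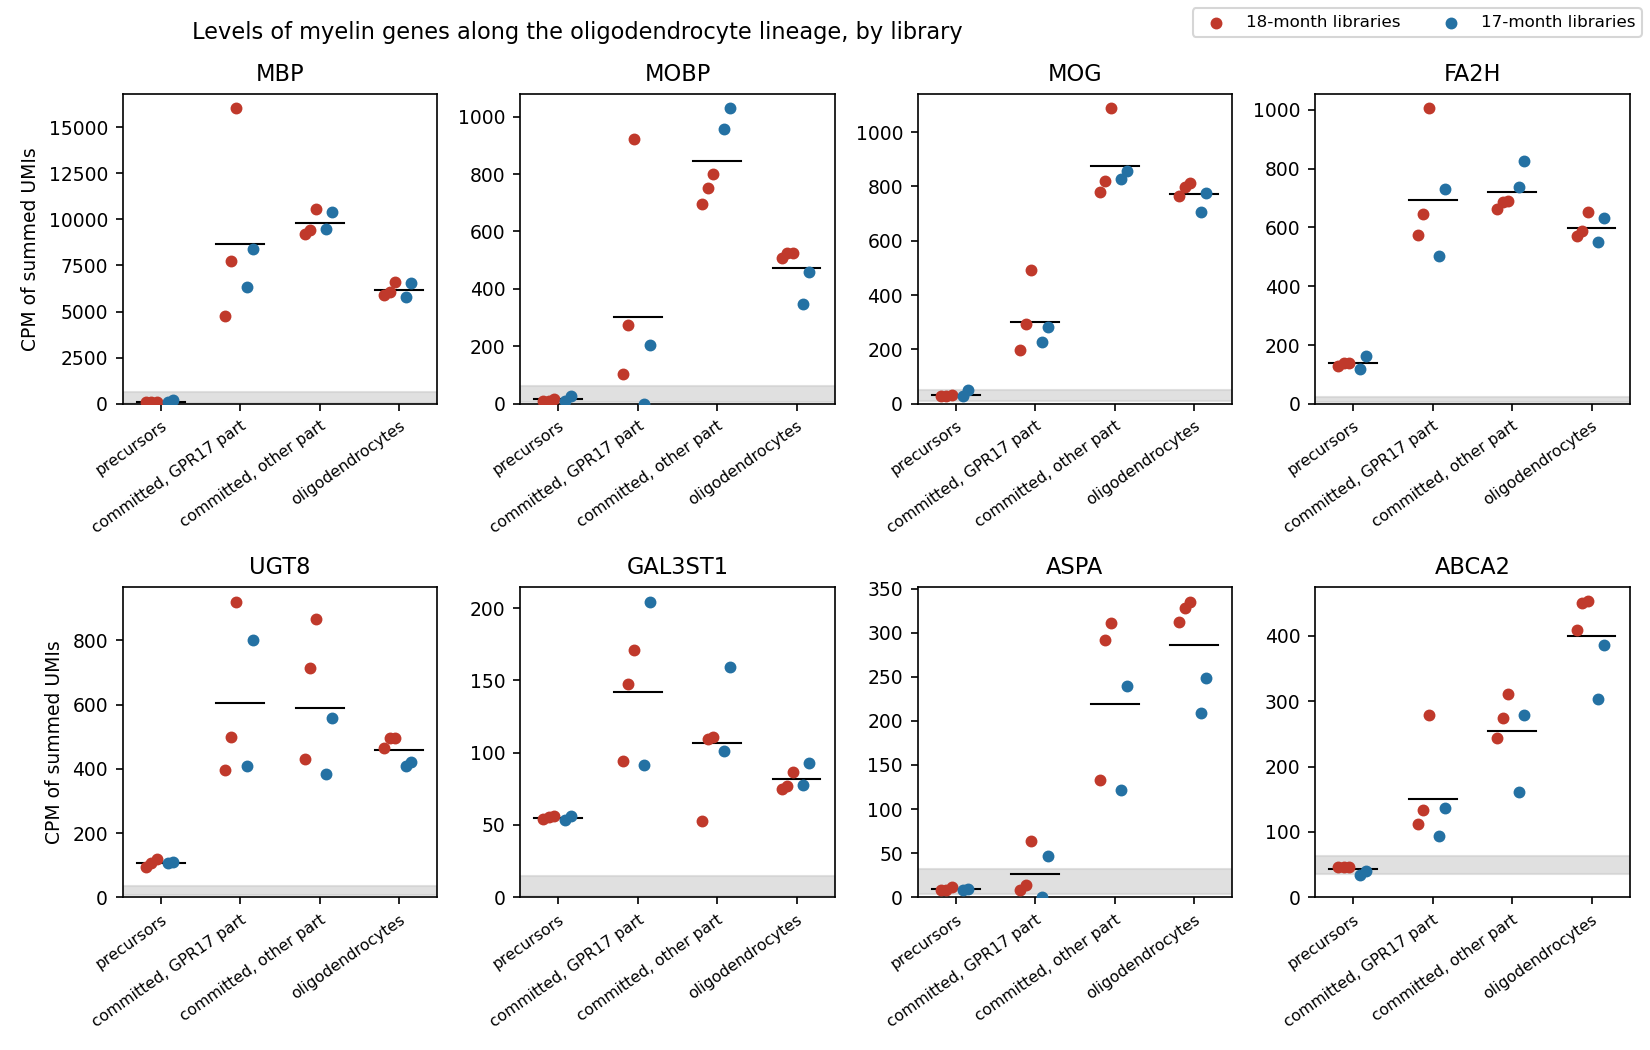
Level of each gene (CPM of summed UMIs, linear axis from 0) in oligodendrocyte precursors, the GPR17 part of the committed precursors, their other part, and oligodendrocytes. Each point is 1 library, horizontal lines are means of the libraries and the grey band spans the means of the 7 classes outside the lineage; MOBP is ENSMMUG00000051408. The means of FA2H, UGT8 and GAL3ST1 lie above the band already in precursors, whereas those of MBP, MOBP, MOG, ASPA and ABCA2 lie within it there.

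The larger MOBP row (ENSMMUG00000051408) averaged 15.5 ± 6.94 CPM in precursors, 532 ± 191 CPM in committed precursors and 473 ± 75.2 CPM in oligodendrocytes. Its log2 fold change of oligodendrocytes over precursors was 4.99 ± 0.25 (edgeR, adjusted p = 6.44e-20). The smaller row (ENSMMUG00000009197) averaged 1.72, 28.6 and 24.3 CPM at the same stages, with a log2 fold change of 3.93 ± 0.32 (edgeR, adjusted p = 2.93e-15). Reads of 1 gene may be split between these identifiers, so neither row alone is the level of MOBP. MOG averaged 33.9 ± 10.4 CPM in precursors, 556 ± 115 CPM in committed precursors and 772 ± 41.3 CPM in oligodendrocytes. Its log2 fold change of oligodendrocytes over precursors was 4.55 ± 0.15 (edgeR, adjusted p = 6.98e-29).

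The galactolipid enzymes differed less, and precursors already held a sizeable part of the oligodendrocyte level. FA2H in oligodendrocytes was at 590, 571 and 653 CPM in the 18-month libraries, against 550 and 633 CPM in the 17-month ones. In precursors it was at 137, 130 and 140 CPM in the 18-month libraries, against 119 and 164 CPM in the 17-month ones. The classes did not overlap, the precursor mean was 23.0% of the oligodendrocyte mean, and the log2 fold change was 2.11 ± 0.15 (edgeR, adjusted p = 1.46e-15). UGT8 in oligodendrocytes was at 497, 465 and 495 CPM in the 18-month libraries, against 410 and 423 CPM in the 17-month ones. In precursors it was at 108, 95.7 and 120 CPM in the 18-month libraries, against 110 and 107 CPM in the 17-month ones. Its classes did not overlap either, with a log2 fold change of 2.07 ± 0.12 (edgeR, adjusted p = 1.03e-20).

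GAL3ST1, the last enzyme on the way to sulfatide, differed least between oligodendrocytes and precursors among the 9 rows. It was at 76.7, 75.2 and 86.9 CPM in oligodendrocytes of the 18-month libraries and at 78.0 and 93.1 CPM in those of the 17-month libraries. Precursors had 55.4, 54.1 and 56.2 CPM in the 18-month libraries, against 55.9 and 53.7 CPM in the 17-month ones. All oligodendrocyte values were above all precursor values, but the log2 fold change of 0.55 ± 0.13 was under the threshold of 1 (edgeR, adjusted p = 0.000483). Per nucleus, GAL3ST1 had 0.209 ± 0.0280 UMIs in oligodendrocytes and 0.210 ± 0.0231 UMIs in precursors (SD, n = 5 each), whose median depths were 2417 and 3614 UMIs.

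The supply genes differed strongly. ASPA averaged 9.08 ± 1.54 CPM in precursors, 139 ± 75.2 CPM in committed precursors and 286 ± 55.3 CPM in oligodendrocytes. ABCA2 averaged 42.7 ± 5.16 CPM in precursors, 205 ± 50.9 CPM in committed precursors and 400 ± 61.6 CPM in oligodendrocytes. The log2 fold changes of oligodendrocytes over precursors were 4.96 ± 0.22 for ASPA (edgeR, adjusted p = 2.89e-23) and 3.20 ± 0.11 for ABCA2 (edgeR, adjusted p = 7.30e-30).

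Of the 9 rows, 8 were called higher in oligodendrocytes than in precursors, at an adjusted p under 0.05 and a log2 fold change of at least 1, and 0 lower. Over all 11502 genes tested, 21% were called, 7.94% as higher and 13.1% as lower. Genes used for clustering or naming, chosen as variable genes or markers, were left out of such shares here and below. What that does to the shares was not tested. The median log2 fold change of the rows was 3.93, from 0.55 to 5.79. In committed precursors against precursors, all 9 rows were called higher, where 16.3% of genes were called, 5.78% as higher and 10.5% as lower; the median log2 fold change was 3.76. The GAL3ST1 call there rested on a log2 fold change of 1.10 ± 0.23 (edgeR, adjusted p = 0.000151), which was 0.96 without 17-month library 2 and 1.00 without 18-month library 3, both under the threshold.

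Between oligodendrocytes and committed precursors, ABCA2 and ASPA were called higher and no row lower, where 8.82% of genes were called, 4.99% as higher and 3.83% as lower. ABCA2 stood at 450, 454 and 408 CPM in oligodendrocytes of the 18-month libraries and at 303 and 386 CPM in those of the 17-month libraries. In committed precursors it was at 275, 208 and 160 CPM in the 18-month libraries and at 176 CPM in 17-month library 2, below every oligodendrocyte value. Its log2 fold change was 1.01 ± 0.14 (edgeR, adjusted p = 1.05e-07) and lay under the fold threshold in most alternatives. ASPA stood at 328, 312 and 335 CPM in oligodendrocytes of the 18-month libraries and at 209 and 248 CPM in those of the 17-month libraries. In committed precursors it was at 225, 155 and 42.7 CPM in the 18-month libraries and at 132 CPM in 17-month library 2, so the classes overlapped. The log2 fold change was 1.20 ± 0.24 (edgeR, adjusted p = 0.000207), and 0.85 without 18-month library 3, which is under the threshold. MBP went the other way without passing the test: 5791 to 6600 CPM in oligodendrocytes lay below 6906 to 11360 CPM in committed precursors, with a log2 fold change of -0.50 ± 0.24 (edgeR, adjusted p = 0.175). MOG was higher in oligodendrocytes by 0.53 ± 0.15 (adjusted p = 0.00919), under the fold threshold. GAL3ST1 was at -0.56 ± 0.21, UGT8 at -0.35 ± 0.14, FA2H at -0.09 ± 0.18 and the MOBP rows at -0.08 ± 0.23 (ENSMMUG00000051408) and -0.08 ± 0.39 (ENSMMUG00000009197), and none of these 5 passed an adjusted p of 0.05.

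The GPR17 part of the committed precursors, split off after the data had been seen, separated the genes further. These sums held 5 to 19 nuclei a library, with a median of 6294 UMIs per nucleus against 3614 in precursors and 2417 in oligodendrocytes, and the part that depth or nuclei caught together play was not tested. MBP was at 16020, 4763 and 7741 CPM in the GPR17 nuclei of the 18-month libraries and at 6337 and 8412 CPM in those of the 17-month libraries. These values were spread on both sides of the oligodendrocyte values and were all far above the precursor values. The fold of oligodendrocytes over the GPR17 part was close to 0 for FA2H, with a log2 fold change of -0.00 ± 0.20 (95% interval -0.40 to 0.39). It was -0.21 ± 0.16 for UGT8 (-0.52 to 0.09), -0.28 ± 0.26 for MBP (-0.79 to 0.24) and -0.68 ± 0.25 for GAL3ST1 (-1.17 to -0.20), and none of these was called. GAL3ST1 passed the adjusted p (edgeR, adjusted p = 0.0406) but lay under the fold threshold of 1.

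ASPA, MOG and ABCA2 were called higher in oligodendrocytes than in the GPR17 part, 3 of the 9 rows where 10.2% of 11311 genes were called higher. ASPA had 64.2, 8.60 and 14.1 CPM in the GPR17 nuclei of the 18-month libraries and 0 and 47.2 CPM in those of the 17-month libraries, a mean of 9.36% of the oligodendrocyte level. The count of 0 came from 5 nuclei and allows up to 137 CPM (3 counts, counting error only). Every oligodendrocyte value was higher than these, with a log2 fold change of 3.78 ± 0.40 (edgeR, adjusted p = 7.93e-11). Against precursors, the GPR17 nuclei showed no called change of ASPA (log2 fold change 1.18 ± 0.71, adjusted p = 0.274, edgeR), while the other 8 rows were called higher, where 4.31% of genes were. Among those 8, both MOBP rows overlapped the precursor values. The smaller row (ENSMMUG00000009197) had a count of 0 in 17-month libraries 1 and 2, and its log2 fold change was 2.87 ± 0.96 (edgeR, adjusted p = 0.0261). MOG had 492, 198 and 295 CPM in the GPR17 nuclei of the 18-month libraries and 228 and 283 CPM in those of the 17-month libraries, all below the oligodendrocyte values. Its log2 fold change of oligodendrocytes over the GPR17 part was 1.54 ± 0.18 (edgeR, adjusted p = 7.95e-10), and that of ABCA2 was 1.61 ± 0.18 (adjusted p = 2.73e-10). MOBP (ENSMMUG00000051408) spread from 0 to 921 CPM over these small sums, and its log2 fold change of 0.86 ± 0.34 was not called (adjusted p = 0.0678). The other 81 nuclei of the class had 219 ± 88.1 CPM of ASPA and 874 ± 123 CPM of MOG (SD, n = 5), 76.5% and 113% of the oligodendrocyte means. Not all rows were that near. MBP was at 9812 ± 617 CPM and MOBP (ENSMMUG00000051408) at 846 ± 141 CPM, 159% and 179% of the oligodendrocyte means. ABCA2 was at 254 ± 56.9 CPM, 63.5% of the oligodendrocyte mean.

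The levels in precursors were set against those in the classes outside the lineage. These classes served as a reference level. The source of their signal was not tested, and it differed between them, as given below for MBP, ABCA2 and ASPA. Per nucleus, excitatory neurons held ABCA2 at the oligodendrocyte level. In CPM they were at 57.5 against 400 in oligodendrocytes, and their median depth was 16180 UMIs against 2417. Outside the lineage ABCA2 ran from 34.9 to 63.4 CPM, with the highest level in astrocytes. ASPA was called higher in astrocytes. FA2H, UGT8 and GAL3ST1 were called higher in precursors than in the classes outside the lineage, and the other 6 rows were not. Per nucleus, FA2H had 0.526 UMIs in precursors, against 0.0259 to 0.109 UMIs in the 7 other classes. UGT8 had 0.413 UMIs in precursors, against 0.0674 to 0.134 UMIs in the other classes. GAL3ST1 had 0.210 UMIs in precursors, against 0.0143 to 0.0361 UMIs in the other classes. In CPM, the log2 fold changes of precursors over the mean of the other classes were 3.91 ± 0.15 for FA2H (edgeR, adjusted p = 2.30e-25), 2.97 ± 0.11 for UGT8 (adjusted p = 1.01e-27) and 4.26 ± 0.15 for GAL3ST1 (adjusted p = 9.21e-29). Over all genes, 17% were called in this comparison, 9.62% as higher and 7.36% as lower. These 3 rows were also the ones called higher when counts were taken per nucleus, where 4.27% of genes were called higher. Classes differ in UMIs per nucleus, so that scale moves all genes of a class together: the median log2 fold change of all genes in this comparison was -0.78 per nucleus and 0.0034 in CPM.

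The proteins and supply genes were not called higher in precursors than outside the lineage, which does not show that precursors lack them. MBP had 0.440 UMIs per precursor nucleus, against 0.689 to 1.59 UMIs in the other classes, and MOBP (ENSMMUG00000051408) had 0.0582 UMIs, against 0.0624 to 0.187. MOG had 0.128 UMIs per precursor nucleus, against 0.108 to 0.198, and ASPA had 0.0344 UMIs, against 0.0278 to 0.129. Per nucleus MBP and ASPA were called lower in precursors than in those classes, with log2 fold changes of -1.28 ± 0.20 (edgeR, adjusted p = 1.85e-07) and -1.06 ± 0.27 (adjusted p = 0.000394), where 30.1% of genes were called lower and the median gene was at -0.78. In CPM, MOG lay higher in precursors, with a log2 fold change of 0.50 ± 0.15 (edgeR, adjusted p = 0.00538), and MBP lower, at -0.49 ± 0.20 (adjusted p = 0.0408), both under the fold threshold of 1. ASPA was at -0.28 ± 0.28 and ABCA2 at 0.08 ± 0.11 in CPM, MOBP (ENSMMUG00000051408) at -0.16 ± 0.29 and MOBP (ENSMMUG00000009197) at 0.68 ± 0.52, and none of these passed an adjusted p of 0.05. Per nucleus MOG was at -0.28 ± 0.14 and MOBP (ENSMMUG00000009197) at -0.07 ± 0.53, so their signs, and that of ABCA2 (-0.70 ± 0.11 per nucleus), turned with the scale. ABCA2 had 0.164 UMIs per precursor nucleus, within the range outside the lineage.

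**Figure D2:**
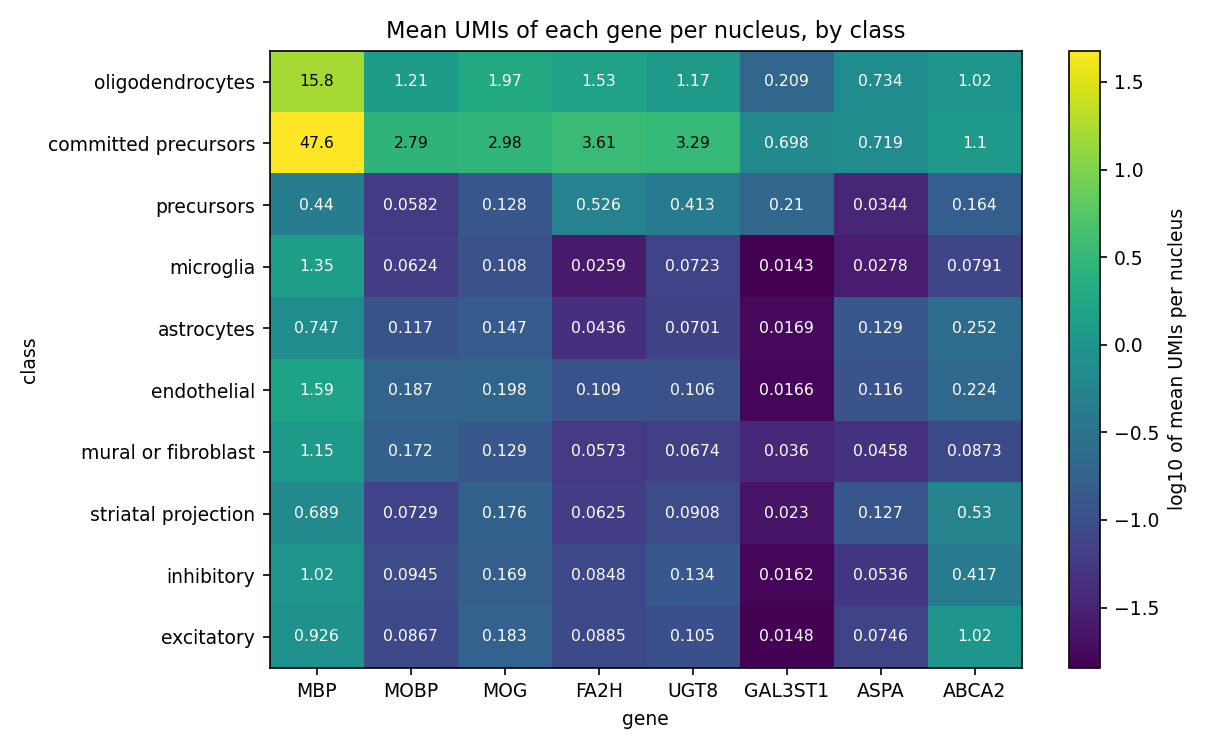
Mean UMIs of each gene per nucleus (mean of libraries, numbers in the cells) by class, coloured on a log10 scale; MOBP is ENSMMUG00000051408. FA2H, UGT8 and GAL3ST1 separate precursors (0.526, 0.413 and 0.210) from the rows below, and ABCA2 is as high in excitatory neurons (1.02) as in oligodendrocytes (1.02). Median depths of these 2 classes were 16180 and 2417 UMIs, and their ABCA2 levels were 57.5 and 400 CPM.

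Shares of nuclei with FA2H, UGT8 or GAL3ST1 were also highest in oligodendrocytes, then precursors, then the classes outside the lineage. For these shares each nucleus was thinned to 1000 UMIs, which left out 142 oligodendrocytes and 3 precursors that were shallower. A UMI of FA2H was seen in 43.3% ± 2.79 of oligodendrocytes and 12.5% ± 2.60 of precursors (SD, n = 5 each), against 0.354% to 3.03% in the classes outside the lineage. For UGT8 the shares were 34.0% of oligodendrocytes and 10.7% of precursors, against 0.347% to 3.57% outside the lineage. For GAL3ST1 they were 7.81% of oligodendrocytes and 5.23% of precursors, against 0.116% to 0.862%. MBP was seen in 99.4% of oligodendrocytes and 11.1% of precursors, against 4.47% to 46.9% outside the lineage, where the top value was that of microglia. Below the precursor mean were striatal projection neurons (4.47%), excitatory neurons (4.97%) and inhibitory neurons (8.46%). Above it were also astrocytes (15.35%), endothelial cells (19.8%) and mural cells or fibroblasts (26.15%). Committed precursors did not keep their CPM order for every row. MBP was seen in 92.8% ± 6.72 of them after thinning (SD, n = 4), below oligodendrocytes, although its mean CPM was higher. Without thinning, FA2H was seen in 72.3% of oligodendrocytes and 37.0% of precursors.

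Signal of the proteins outside the lineage varied by library and by class. Excitatory neurons had 0.703, 0.855 and 1.23 MBP UMIs per nucleus in the 18-month libraries, against 0.508 and 1.33 in the 17-month libraries. The lowest value was in the library with the smallest share of oligodendrocytes and the highest in the one with the largest share, 17-month library 2. Precursors of that library had 0.806 MBP UMIs per nucleus, against 0.327 to 0.365 in the other 4 libraries, and its MOG (52.0 CPM) and MOBP (26.8 CPM) were also the highest among precursors. Free RNA in the droplets and its part in these levels were not tested.

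**Figure D3:**
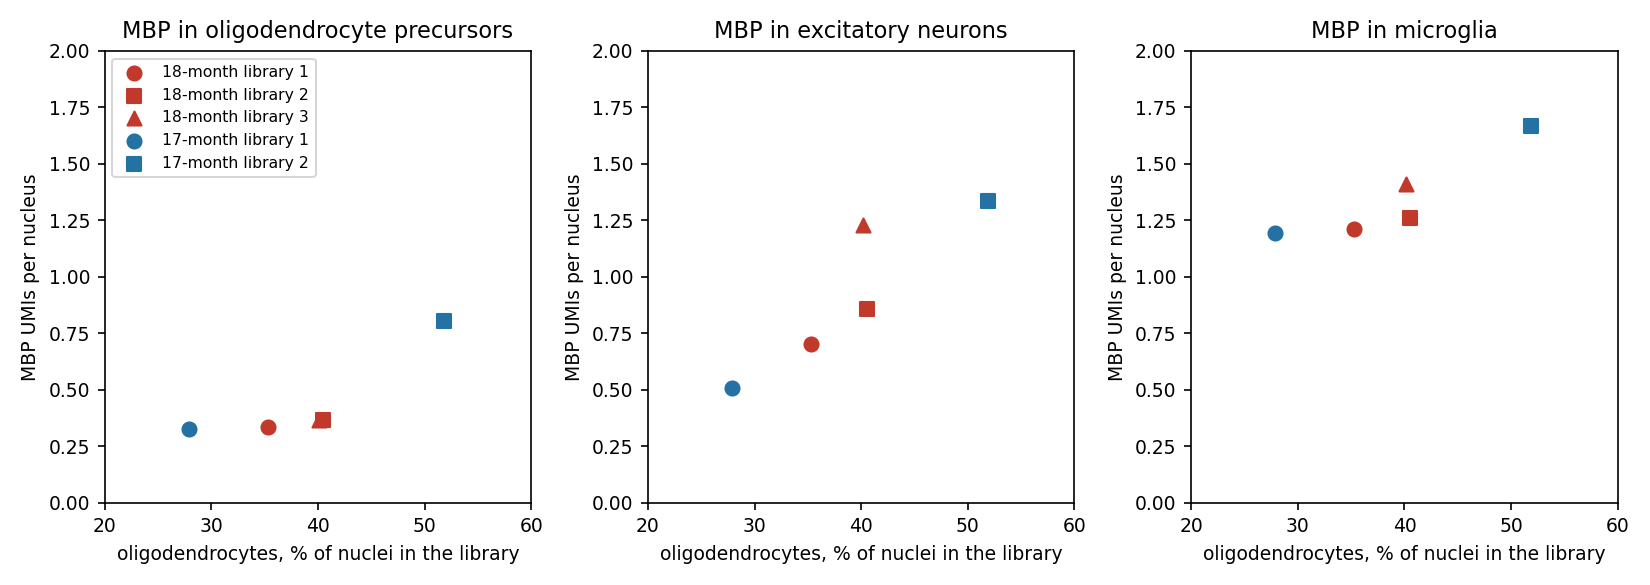
MBP UMIs per nucleus in oligodendrocyte precursors, excitatory neurons and microglia (axes from 0 to 2) against the share of oligodendrocytes in the library. Each point is 1 library; 17-month library 2, with 51.8% oligodendrocytes, has the highest value in each panel (0.806, 1.33 and 1.67).

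Microglia stood out for MBP in CPM. It was at 634 CPM there, 10.3% of the oligodendrocyte level, and 4 of the 9 rows were called higher than in the other classes outside the lineage, where 11.2% of genes were called higher. The log2 fold change was 2.07 ± 0.16 for MBP (edgeR, adjusted p = 3.45e-15), 1.23 ± 0.17 for UGT8, 1.12 ± 0.32 for GAL3ST1 and 1.03 ± 0.15 for MOG. With doublets kept, MBP alone was called (1.45), and UGT8, GAL3ST1 and MOG were at 0.68, 0.75 and 0.58, under the fold threshold. Microglia had the lowest median depth of the named classes, 2036 UMIs, and per nucleus none of the 4 was called higher, where 3.2% of genes were: the MBP fold was 0.45 ± 0.17 and those of UGT8, GAL3ST1 and MOG were -0.39, -0.48 and -0.60, beside a median of -1.68 over all genes. MBP made up 77.6% of the summed UMIs of the 9 rows in microglia, against 66.7% in oligodendrocytes and 36.1% in excitatory neurons, and FA2H made up 1.41%, 6.46% and 3.42%. After thinning to 1000 UMIs, 46.9% ± 2.98 of microglia had an MBP UMI. The MBP locus also gives rise to golli transcripts, known from immune cells, and counts per gene do not separate them from the myelin transcripts; their part was not tested.

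Excitatory neurons showed the reverse dependence on scale. In CPM, 8 of the 9 rows were called lower there than in the other classes outside the lineage, where 9.26% of genes were called lower. Per nucleus 0 of the 9 were called lower, where 2.72% of genes were, at a median depth of 16180 UMIs, and ABCA2 was called higher with a log2 fold change of 2.26 ± 0.08 (edgeR, adjusted p = 5.63e-33), where 82% of all genes were called higher and the median gene was at 1.71. ABCA2 had 1.02 UMIs per excitatory neuron, 0.530 per striatal projection neuron and 0.417 per inhibitory neuron, against 0.0791 in microglia. In CPM ABCA2 was at 57.5 CPM in excitatory neurons, 63.4 CPM in astrocytes and 37.5 CPM in microglia.

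Astrocytes carried the highest ASPA level outside the lineage. ASPA was at 32.5 CPM and 0.129 UMIs per nucleus there, and the log2 fold change against the other classes was 1.74 ± 0.24 in CPM (edgeR, adjusted p = 5.42e-08) and 1.05 ± 0.23 per nucleus (adjusted p = 7.32e-05). It was the only row called higher in astrocytes in either scale, where 12.2% of genes were called higher in CPM and 6.79% per nucleus. Per nucleus, striatal projection neurons had nearly as much ASPA (0.127 UMIs). Their log2 fold change was 0.92 ± 0.21 (edgeR, adjusted p = 7.90e-05), under the fold threshold of 1, where the median gene was at 0.98. In CPM, ASPA was at 9.39 in striatal projection neurons, 20.4 in endothelial cells and 19.1 in mural cells or fibroblasts. Endothelial cells had MOBP (ENSMMUG00000051408) called higher, with a log2 fold change of 1.13 ± 0.30 (adjusted p = 0.00138) against a background of 14.9%, but without 17-month library 1 it was 0.58 and not called. Mural cells or fibroblasts had MBP called higher in CPM (1.20 ± 0.27, adjusted p = 0.000978; 6.03% of genes) and not per nucleus (0.24). Inhibitory neurons had ASPA called lower in CPM (-1.27 ± 0.26, adjusted p = 6.35e-05; 7.69% of genes), and striatal projection neurons had MOBP (ENSMMUG00000051408) and MBP called lower (-1.52 and -1.58; 12.8% of genes), none of them per nucleus.

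All but 1 of the oligodendrocyte nuclei fell into 2 clusters, of 10336 nuclei (cluster 1, OPALIN at 756 CPM) and 4170 nuclei (cluster 2, OPALIN at 469 CPM), and myelin genes differed little between them. The 1 nucleus left stood as a cluster of its own and was in neither sum. Cluster 2 held 28.4% to 29.0% of oligodendrocytes in every library. MOBP (ENSMMUG00000051408) was at 668, 633 and 672 CPM in cluster 2 of the 18-month libraries and at 414 and 553 CPM in that of the 17-month libraries. In cluster 1 it was at 449, 446 and 445 CPM in the 18-month libraries, against 313 and 407 CPM in the 17-month ones. Within each of the 5 libraries cluster 2 was higher, and the log2 fold change was 0.52 ± 0.03 (edgeR, adjusted p = 3.66e-33). The smaller MOBP row gave 0.55 ± 0.10 and was also higher in 5 of 5 libraries. UGT8 gave 0.30 ± 0.03, GAL3ST1 0.18 ± 0.06 and MBP 0.12 ± 0.02, each higher in 5 of 5 libraries. For FA2H, ABCA2, ASPA and MOG the log2 fold change was at most 0.06 and did not pass an adjusted p of 0.05. With the fold threshold, edgeR and DESeq2 called 0 of the 9 rows, where edgeR called 0.914% of 9083 genes; 5 rows had an unadjusted and an adjusted p under 0.05. Cluster 2 had more UMIs per nucleus, with a median of 2863 against 2266 in cluster 1.

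**Figure D4:**
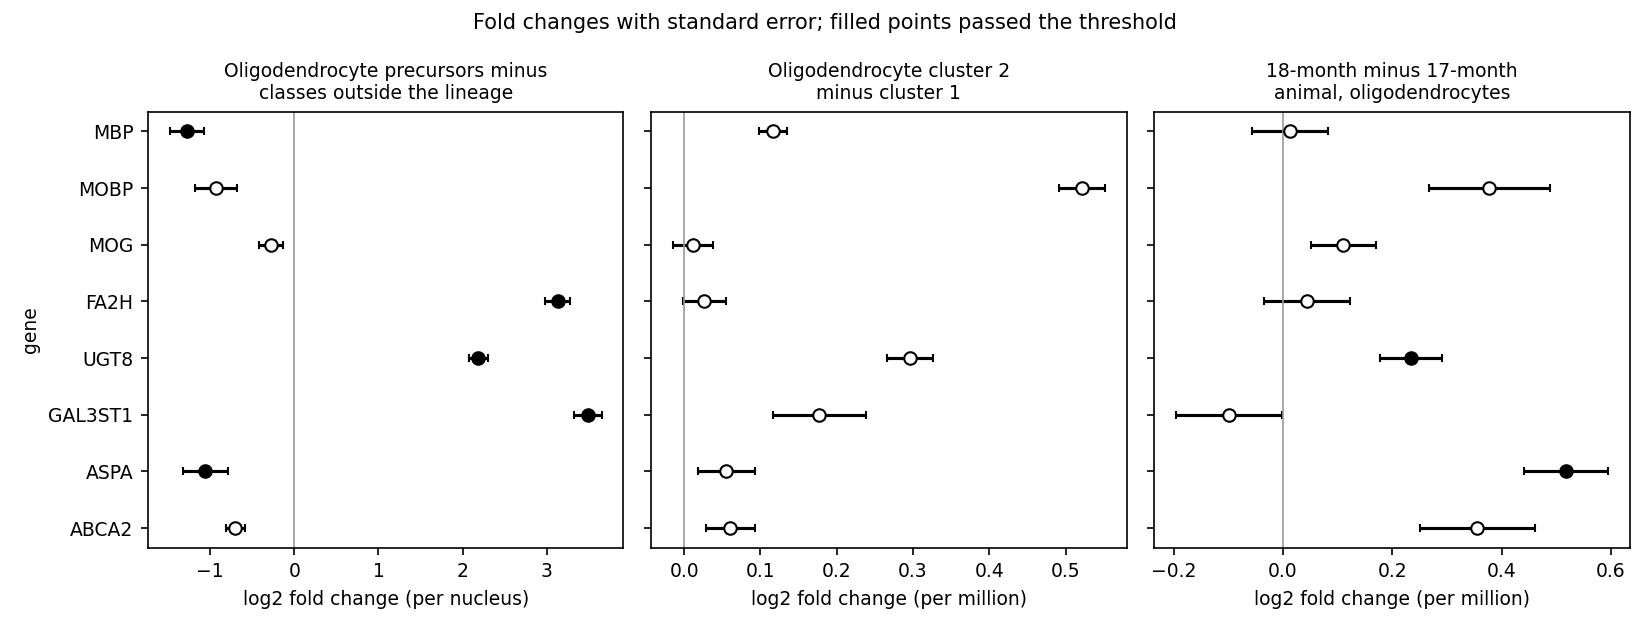
Log2 fold changes with SE for oligodendrocyte precursors over classes outside the lineage (counts per nucleus), oligodendrocyte cluster 2 over cluster 1 and the 18-month over the 17-month animal in oligodendrocytes (both in CPM). Filled points passed the threshold of their comparison; FA2H, UGT8 and GAL3ST1 lie at 3.13, 2.19 and 3.49 in the first panel, and ASPA lies farthest right in the third (0.52).

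Between the animals, ASPA and UGT8 were called higher in oligodendrocytes of the 18-month animal, where an adjusted p under 0.05 sufficed whatever the fold. This was 2 of the 9 rows, where 13.8% of 11537 genes were called and 7.06% were higher. ASPA averaged 325 CPM (312 to 335) in libraries of the 18-month animal, against 229 CPM (209 and 248) in those of the 17-month animal. Its log2 fold change was 0.52 ± 0.08 (edgeR, adjusted p = 0.00172), and it was called with every library left out in turn (0.40 to 0.67). UGT8 was at 465 to 497 CPM in the 18-month libraries, against 410 and 423 CPM in the 17-month libraries, with a log2 fold change of 0.23 ± 0.06 (edgeR, adjusted p = 0.0206). That call was lost without 17-month library 1 (adjusted p = 0.104), 18-month library 1 (0.113) or 18-month library 3 (0.0838), with DESeq2 (0.0938) and with the replicate number as a block (0.196).

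MBP, MOG, FA2H and GAL3ST1 were not called between the animals in oligodendrocytes, with log2 fold changes of 0.01, 0.11, 0.04 and -0.10. Nor was the smaller MOBP row (ENSMMUG00000009197), at 0.27 ± 0.14 (edgeR, adjusted p = 0.247). MOBP (ENSMMUG00000051408) and ABCA2 were not called either, at 0.38 ± 0.11 (edgeR, adjusted p = 0.0706) and 0.36 ± 0.11 (adjusted p = 0.0699). Without 17-month library 2 they were called, at 0.61 and 0.56, with 17-month library 1 then standing alone for that animal and assumed to vary like the other libraries. In precursors 0 of the 8 rows tested were called by edgeR or DESeq2, where 4.68% of 9426 genes were; 1 row had an unadjusted p under 0.05. Without 17-month library 1, MBP and MOG were called lower in precursors of the 18-month animal, at -1.33 and -0.85, when 17-month library 2 alone stood for the other animal. In committed precursors 3 libraries stood against 1, and 0 of 8 rows were called by edgeR or DESeq2, with 0 at an unadjusted p under 0.05, where 0.101% of 3968 genes were called.

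Among 58 other genes of myelin and of its lipid pathway, 53 were tested between the classes. In oligodendrocytes against precursors, 24 were called higher and 7 lower, where 7.94% of all genes were called higher and 13.1% lower, with a median log2 fold change of 0.82 over the list and 0.04 over all genes. The highest were OPALIN, a membrane protein of oligodendrocytes (5.24), CLDN11, the tight-junction protein of myelin (4.13), MAL, a myelin proteolipid (3.35), and PEX5L (3.28). The lowest were PMP2, a fatty acid-binding protein (-1.84), the ceramide synthases CERS5 (-1.73) and CERS6 (-1.55), and SPTLC3, a subunit of serine palmitoyltransferase (-1.66). In committed precursors against precursors, where 5.78% of all genes were called higher and 10.5% lower, 14 of the list were called higher, led by OPALIN (5.05), CLDN11 (4.45), the deacetylase SIRT2 (3.22) and the adhesion protein NFASC (3.14). There, 4 were called lower: PLPP3 (-2.65), PMP22 (-2.27), CERS6 (-1.65) and the desaturase SCD5 (-1.43). The GPR17 part alone gave 11 higher and 7 lower against precursors, where 4.31% of genes were called higher and 10.6% lower.

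In oligodendrocytes against committed precursors, 6 of the 53 were called higher and 6 lower, where 4.99% of all genes were called higher and 3.83% lower. The highest were HAPLN2, a hyaluronan link protein (3.42), PEX5L (3.27), PMP22 (3.02) and EVI2A (1.93), and the lowest were SIRT2 (-2.43), PMP2 (-2.39), NFASC (-1.72) and CERS5 (-1.44). HAPLN2 was also the single one of 50 called between the oligodendrocyte clusters, where 0.914% of genes were called, higher in cluster 2 with a log2 fold change of 1.04 ± 0.14. With the GPR17 part alone as the committed class, 17 were higher and 6 lower in oligodendrocytes, where 10.2% of genes were called higher and 4.78% lower. Between the animals, 17 of 53 were called higher and 5 lower in oligodendrocytes of the 18-month animal, where 7.06% of all genes were called higher and 6.76% lower. CERS4 (0.61) and CLDN11 (0.53) were the highest and HAPLN2 (-0.69) and SLC13A3 (-0.53) the lowest.

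Over the 10 named classes, the genes whose log2(CPM + 1) followed each myelin gene most closely are given as a description. The classes share libraries and may share free RNA, which was not tested, so no p is given. MBP was followed by CD22 (Pearson's r = 0.99), RNF13 (0.98) and ARID4B (0.98), and MOG by OPALIN (0.99), CD22 (0.98) and UBE2G1 (0.98). Both MOBP rows had OPALIN first (0.98 each), then CNP (0.98) for the larger row and C9H10orf90 (0.98) for the smaller. FA2H was followed by ERBB3 (0.98), KCNH8 (0.98) and ZNF638 (0.97), and GAL3ST1 by KCNH8 (0.97), ENSMMUG00000057540 (0.95) and SYNE3 (0.94). UGT8 was followed by MAL (0.97), DENND5A (0.97) and CDK19 (0.97). ASPA was followed by AMER2 (0.95), TESK2 (0.95) and SEPTIN7 (0.94), and ABCA2 by IPO13 (0.98), SLC44A1 (0.97) and PLEKHH1 (0.96). KCNH8, first for GAL3ST1, was at 334 CPM in precursors and 638 CPM in oligodendrocytes, and OPALIN, first for MOG, was at 18.4 and 655 CPM.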

How the data were processed

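The authors deposited 1 matrix of raw UMI counts for each library, and the file headers name Cell Ranger 5.0.1. CASAVA 1.8, Cell Ranger and Seurat are named in the submitters' processing notes, with no role given. Whether reads from introns were counted, and how barcodes were filtered, is not given in the sources used here. The libraries held 47512670 to 70896967 UMIs, and precision is limited by nuclei per sum as well as by this depth.

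Nuclei with under 500 genes (359) were removed, and none had over 5% mitochondrial UMIs. Doublets were treated by removing the nuclei with the highest Scrublet scores (scanpy 1.11.5), 0.8% for every 1000 nuclei in a library (2555 removed), since the automatic threshold marked between 0.0314% and 2.81% of a library. Clustering used the 2000 most variable genes of a random 1 of 2 equal gene sets, without any listed gene, with 30 principal components corrected for library, 15 neighbours and Leiden clustering (leidenalg 0.10.2) at resolution 1.0, which gave 28 clusters. Clusters were named by the class with the highest mean marker score, at least 0.5 above the next. Those with under 50 nuclei, low UMIs or top genes of another class stayed unnamed. Limits of this naming were set after clusters had been seen. Python 3.11.15 was used with matplotlib 3.10.9, scikit-learn 1.9.0, numpy 2.4.6, pandas 2.3.3, igraph 0.11.9 and scipy 1.17.1.

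Each class of a library was summed to 1 count per gene, from 20 nuclei or more (5 or more for the parts of the committed class). The sums were tested in R 4.3.3 by edgeR's robust quasi-likelihood fit (version 4.0.16, filterByExpr, TMM) over all genes not used for clustering or naming. P-values were adjusted by Benjamini-Hochberg over all tested genes. Class comparisons shared 1 fit of 48 sums with the library as a block. The animals were compared on the sums of 1 class, 3 against 2. Counts per nucleus replaced TMM scaling in 1 added alternative. The split of the committed class was also added after the data had been seen. Alternatives were DESeq2 1.42.0, no filter on low counts, each library left out, doublets kept, at least 1000 genes per nucleus, no block, other class sizes and finer clusters. The fit was tested on simulated data. Helper packages were limma 3.58.1 and data.table (1.17.8).

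The genes and lists were chosen with earlier results of these data known. By the rule for named genes, the members were to be named in every comparison; MAG was not analysed, and rows that behaved alike are given as counts. Also named are the 4 highest and 4 lowest called genes of the other myelin genes in each lineage comparison, and the 3 genes closest to each by correlation. GPR17 and BCAS1 in the parts of the committed class and the genes named between animals or clusters are named with their values known. Symbols came from the files for 16548 of 21761 identifiers and from a list of gene names for 667.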

Additional observations from a re-analysis of the deposited data

Results flagged for a closer look

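In 27 groups of 4 or 5 libraries of the lineage classes, 5 had 1 library far from the others by Dixon's test at the 95% level, which chance alone does in about 1 of 20 groups. In oligodendrocyte precursors, 17-month library 2 was the high one for MBP, at 223 CPM where the next library had 95.1 CPM, for MOG, at 52.0 CPM where the next had 32.9 CPM, and for MOBP (ENSMMUG00000009197), at 4.19 CPM where the next had 1.36 CPM. The same library had 51.8% oligodendrocytes, the largest share, and 1.33 MBP UMIs per excitatory neuron, the highest of the 5 libraries. In the same class, ASPA was high in 18-month library 1, at 11.8 CPM where the next library had 8.86 CPM. In oligodendrocytes, MOBP (ENSMMUG00000009197) was low in 17-month library 1, at 18.1 CPM where the next library had 24.8 CPM.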

How the results depend on the processing

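The 3 lineage comparisons, 8 comparisons outside the lineage, 1 of oligodendrocyte clusters and 3 of animals were repeated under the alternatives. In oligodendrocytes against precursors, 8 rows were called higher and 0 lower in every alternative run. In precursors against classes outside the lineage, 3 were called higher in every one. Of the values in lineage comparisons, 348 kept their direction and their side of the threshold, 11 lost the call and 1 gained it. Among the animals 225 kept it, 5 lost it and 4 gained it, and in the oligodendrocyte clusters all 90 kept it. Outside the lineage 735 kept it, 26 lost it, 22 gained it and 9 turned their sign.

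In oligodendrocytes against committed precursors, where 2 rows were called higher, 1 was with DESeq2, with at least 1000 genes per nucleus, with no replicate block and with only the lineage classes in the fit, and 0 to 2 with a library left out. Finer clusters, at resolution 2.0, left no committed sum of 20 nuclei, so only oligodendrocytes and precursors could be compared. In oligodendrocytes between the animals, where 2 rows were called higher, 1 was with DESeq2 and 1 with the replicate block, and 1 to 4 with a library left out. In precursors between the animals, 0 rows were called lower and 0 to 2 were with a library left out. The replicate numbers do not pair the samples, since they come from different animals: same-numbered libraries correlated at 0.021 and -0.0296 in precursors and at 0.0428 and -0.213 in oligodendrocytes.

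Outside the lineage, DESeq2 called 3 rows higher in mural cells or fibroblasts in place of 1, and 2 lower in inhibitory neurons in place of 1. With doublets kept, 2 were higher in astrocytes in place of 1, 1 in microglia in place of 4, 3 in mural cells or fibroblasts and 2 lower in inhibitory neurons. With a library left out, rows called higher ranged from 1 to 2 in astrocytes, 2 to 5 in microglia and 0 to 1 in endothelial cells, and rows called lower from 1 to 2 in inhibitory neurons and 2 to 4 in striatal projection neurons. With counts per nucleus, chosen after seeing the data, 1 row was higher in excitatory neurons, 1 in striatal projection neurons, 0 in microglia and 0 in mural cells or fibroblasts. Then 0 were lower in excitatory, inhibitory and striatal projection neurons, 3 in microglia, 1 in mural cells or fibroblasts and 2 in precursors. These counts cannot be read alone, since all genes move on that scale. Its median gene was at -1.68 in microglia, -1.20 in mural cells or fibroblasts and 0.98 in striatal projection neurons. In excitatory neurons 82% of genes were called higher, and in precursors 30.1% were called lower. Among the rows called on either scale, that scale turned the sign in excitatory neurons of MOBP (ENSMMUG00000009197; 0.13), UGT8 (0.21), MOG (0.27) and FA2H (0.58), and in microglia of UGT8 (-0.39), MOG (-0.60), GAL3ST1 (-0.48), ASPA (-1.61) and FA2H (-1.44). Of 72 values compared between the scales, 21 more, called on neither, also turned, among them both MOBP rows in microglia (-0.95 and -0.48). By its construction that scale moved the log2 fold change of the median gene by 1.58 in excitatory neurons and by -1.62 in microglia; other causes were not tested. Committed precursors rest on few nuclei (16 to 37 a library), and a level of 0 in the GPR17 part means few UMIs, not absence.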
